A study of Mus musculus with 48 samples.

Results

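Small nucleolar RNAs (snoRNAs) and their Cajal-body relatives (scaRNAs) were followed across all groups of the series through 83 genes. These were the genes annotated as snoRNA or scaRNA in GENCODE whose deposited CPM (read counts scaled to a common library total) averaged at least 0.5 over the 28 RNA-seq libraries. They comprised 73 snoRNA and 10 scaRNA genes out of 1558 annotated genes of these types, of which 431 had any read, and out of 55335 genes in the table. The genes were thus chosen by their mean level in these same libraries, so that level is given as a description. Just inside the threshold lay Snord110 with 0.504 CPM, Gm24313 with 0.509 and Gm23136 with 0.524, and just outside lay Snord55 with 0.499, Snord37 with 0.497 and Snord88c with 0.47. Without the Mtrex-KO libraries, 2 genes (Gm23136 and Gm24313) would have fallen below it.

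The libraries came from male mouse embryonic stem cells of a hybrid 129-C57BL/6 background grown with serum, LIF and 2i, all derived from lines carrying a tamoxifen-inducible Cre at Rosa26. Mtrex-KO cells had lost a floxed Mtrex allele after 3 days in 100 nM 4-hydroxytamoxifen, and Nrde2-KO cells a floxed Nrde2 allele after 4 days in the same dose. Their untreated parents served as Mtrex-WT and WT, so the knockouts also differ from their controls by the drug. Nrde2d200 cells make NRDE2 without its N-terminal part, and Nrde2-D174R cells carry a point mutation. Ccdc174-dTAG cells carry CCDC174 fused to the FKBP12F36V degron and received 500 nM dTAG-13 for 24 hours, with the same fusion line left without dTAG-13 as Ccdc174-WT. A second experiment compared WT with Nrde2-KO and Ccdc174-WT with Ccdc174-dTAG, each without and with the translation inhibitor cycloheximide (CHX) at 0.1 mg/ml for 4 hours. WT and Nrde2-KO were also profiled by Ribo-seq. Each of the 14 RNA-seq groups and 2 Ribo-seq groups held 2 libraries. The labels did not say whether these were separate cultures, so p-values measure the spread between libraries, which may be technical.

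Box C/D snoRNAs base-pair with ribosomal RNA and guide fibrillarin to 2'-O-methylate it, and box H/ACA snoRNAs guide dyskerin to convert uridine to pseudouridine. The scaRNAs do the same for spliceosomal small nuclear RNAs in Cajal bodies. In mammals most of these RNAs lie in introns of host genes. They are released when the spliced intron is debranched and its ends are trimmed by exonucleases up to the protein-covered core. MTREX is the helicase that feeds RNAs to the nuclear exosome, one of the trimming enzymes. NRDE2 is a nuclear protein that binds MTREX, and CCDC174 is a nuclear protein studied here beside it.

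Letters of the gene sequences gave a box class. A gene was called C/D when TGATG or GATGA stood in its first 20 bases and CTGA in its last 15, and otherwise H/ACA when ACA stood 2 or 3 bases before its 3' end. By this rule 32 genes were C/D, 43 H/ACA and 8 neither. On the opposite strand the same search found 0 C/D and 2 H/ACA among these genes. Of all 1558 annotated genes, 23.3% were C/D and 43.6% H/ACA on the gene strand, against 0 and 6.35% on the opposite strand. A match describes letters and is no proof of a box in use, and a miss is no proof that a box is absent. Snord13, Snord53 and Snord118 carry Snord names and still matched neither rule. Below, C/D, H/ACA and neither box mean only the outcome of this search. The C/D genes were 65 to 343 bases long with a median of 75, and the H/ACA genes 122 to 275 with a median of 135.

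The sequences below carry the results that follow and were read from the GENCODE transcripts on GRCm38, the build of the files. Capitals mark the C and D boxes or the ACA. The H/ACA gene Snora31 (chr14:75847905-75848034, plus strand, in Tpt1) and Gm24336 (chr19:44113979-44114124, minus strand, in Cwf19l1, no box found) were higher in Mtrex-KO, and Snora23 (chr7:110046364-110046547, plus strand, in Ipo7) was lower.
Snora31: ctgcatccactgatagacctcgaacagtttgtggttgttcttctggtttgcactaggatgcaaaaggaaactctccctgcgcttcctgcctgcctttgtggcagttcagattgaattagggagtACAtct
Gm24336: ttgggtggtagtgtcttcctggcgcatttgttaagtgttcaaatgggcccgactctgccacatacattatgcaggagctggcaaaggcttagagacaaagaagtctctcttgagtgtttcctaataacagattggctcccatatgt
Snora23: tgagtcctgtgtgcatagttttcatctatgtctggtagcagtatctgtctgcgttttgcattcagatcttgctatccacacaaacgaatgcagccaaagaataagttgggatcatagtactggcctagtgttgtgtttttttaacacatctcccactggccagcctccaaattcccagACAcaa

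Among the greatest losses after CHX were Snora41 (chr1:63179004-63179135, plus strand, in Eef1b2), Gm23201 (chr2:167064998-167065086, plus strand, in Zfas1), Snord49a (chr11:62603450-62603521, plus strand) and Snord65 (chr11:62604515-62604586, plus strand). The last pair share the noncoding host 2410006H16Rik.
Snora41: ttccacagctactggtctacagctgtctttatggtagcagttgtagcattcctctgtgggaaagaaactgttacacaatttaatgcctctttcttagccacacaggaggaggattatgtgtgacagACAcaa
Gm23201: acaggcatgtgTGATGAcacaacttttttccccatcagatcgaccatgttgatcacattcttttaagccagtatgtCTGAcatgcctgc
Snord49a: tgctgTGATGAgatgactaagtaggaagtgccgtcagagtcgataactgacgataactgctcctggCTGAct
Snord65: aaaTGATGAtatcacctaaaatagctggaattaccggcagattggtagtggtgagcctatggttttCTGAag

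In Ribo-seq of Nrde2-KO leading gains were in Snord87 (chr1:9942463-9942549, minus strand, in Snhg6), Snord34 (chr7:45126601-45126670, minus strand, in Rpl13a) and Rnu73b (chr3:86140618-86140688, minus strand, in Rps3a1). These are short C/D RNAs with both boxes near their ends.
Snord87: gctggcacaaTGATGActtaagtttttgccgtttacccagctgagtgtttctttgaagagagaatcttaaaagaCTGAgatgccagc
Snord34: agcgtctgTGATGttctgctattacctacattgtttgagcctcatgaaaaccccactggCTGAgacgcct
Rnu73b: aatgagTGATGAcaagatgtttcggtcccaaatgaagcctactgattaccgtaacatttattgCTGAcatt

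A host gene on the same strand contained 74 of the 83 genes, in 60 distinct hosts. Where several genes contained a member, the one of highest mean CPM was taken as host. The host was protein-coding for 65 genes, a processed transcript for 5 and a lincRNA for 4. Among the hosts, 12 held more than 1 of the genes. Rpl13a, which encodes a ribosomal protein, held 3 (Snord32a, Snord34 and Snord35a), and 2410006H16Rik held another 3 (Snord49a, Snord49b and Snord65). For 6 genes an exon of another gene overlapped on the same strand: Scarna13, Gm24616, Gm23201, Gm24888, Snora73a and Snora2b. Reads there could not be assigned with certainty. Only uniquely mapped reads were counted, so a read fitting both genes of a near-identical pair would be lost rather than shared. Snora73a with Snora73b and Snora2b with Gm22806 were treated as such pairs, and their likeness was not measured here.

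Levels were uneven. Snora73b (U17, an H/ACA RNA needed for cleavage of pre-ribosomal RNA) averaged 183 CPM over the 28 libraries, Snord17 131 and Gm26448 113, and these 3 made up 48.1% of the summed mean. The other members were far lower. In all, 12 genes averaged 10 CPM or more, 48 lay from 1 to 10 and 23 below 1, with a median of 2.41 CPM. Per kilobase of gene the order began with Snora73b at 894 CPM per kb, Gm26448 at 558 and Snord17 at 552. The scaRNA Gm25395 and the C/D gene Gm25835 followed at 214 each, then Snora78 at 208, Scarna6 at 181 and Scarna2 at 117. Snora73b ranged from 67.7 to 720 normalized CPM over the libraries with a median of 151, Gm26448 from 62.6 upward with a median of 111, and Snord17 from 54.0 to 327 with a median of 117. The ranges of these 3 overlapped. Short RNAs are also underrepresented in a library of 50-nt reads from size-selected fragments, by an amount that was not measured, so levels are relative within this assay.

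RNA-seq libraries held 28683644 to 36272309 reads in genes and Ribo-seq libraries 3475051 to 5035940. In bulk samples fewer cells of a type and less RNA per cell cannot be told apart. Mtrex stood at 119 and 112 normalized CPM in the 2 Mtrex-WT libraries and at 46.4 and 41.6 in Mtrex-KO. The other untreated wild-type libraries held 195 to 255 for Mtrex, so the Mtrex-WT control was already lower than the other lines. Nrde2 stood at 41.6 and 40.5 in WT and 19.3 and 20.4 in Nrde2-KO. With CHX the Nrde2 reads were not lower in the knockout but slightly higher (244 and 226 in WT, 259 and 250 in Nrde2-KO), so they do not check it there. Depletion of CCDC174 acts on the protein, so RNA reads do not check that either. The stem cell marker Pou5f1 was high in every library. One library stood apart in these genes: Mtrex-KO library 1 was above library 2 in 74 of 83 genes, with a median log2 ratio of 0.56, and 26 genes differed more than 2-fold (a log2 ratio beyond 1). Over all genes that median was -0.05 and 4.28% differed as much, and in the other RNA-seq groups 0 to 3 of the 83 genes did. Smaller one-sided differences occurred elsewhere: Nrde2d200 library 1 was above library 2 in 73 genes (median log2 ratio 0.33), and library 1 of the first WT pair, the control of 3 comparisons, was above library 2 in only 17 (median -0.28). Mtrex-KO results are given below with their values without library 1.

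Changes were tested with limma on log2 values of CPM divided by a library factor plus 0.25, over all genes of a fit. A gene was called at an adjusted p below 0.01 and a log2 change beyond 1, that is more than 2-fold. A log2 change on this scale understates the change of low genes. Over the RNA-seq comparisons of a mutant with its control, calls among the 83 genes occurred only in Mtrex-KO, while CHX lowered most of them and Nrde2-KO raised many in Ribo-seq, as the plot of every gene in each comparison shows.

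**Figure D1:**
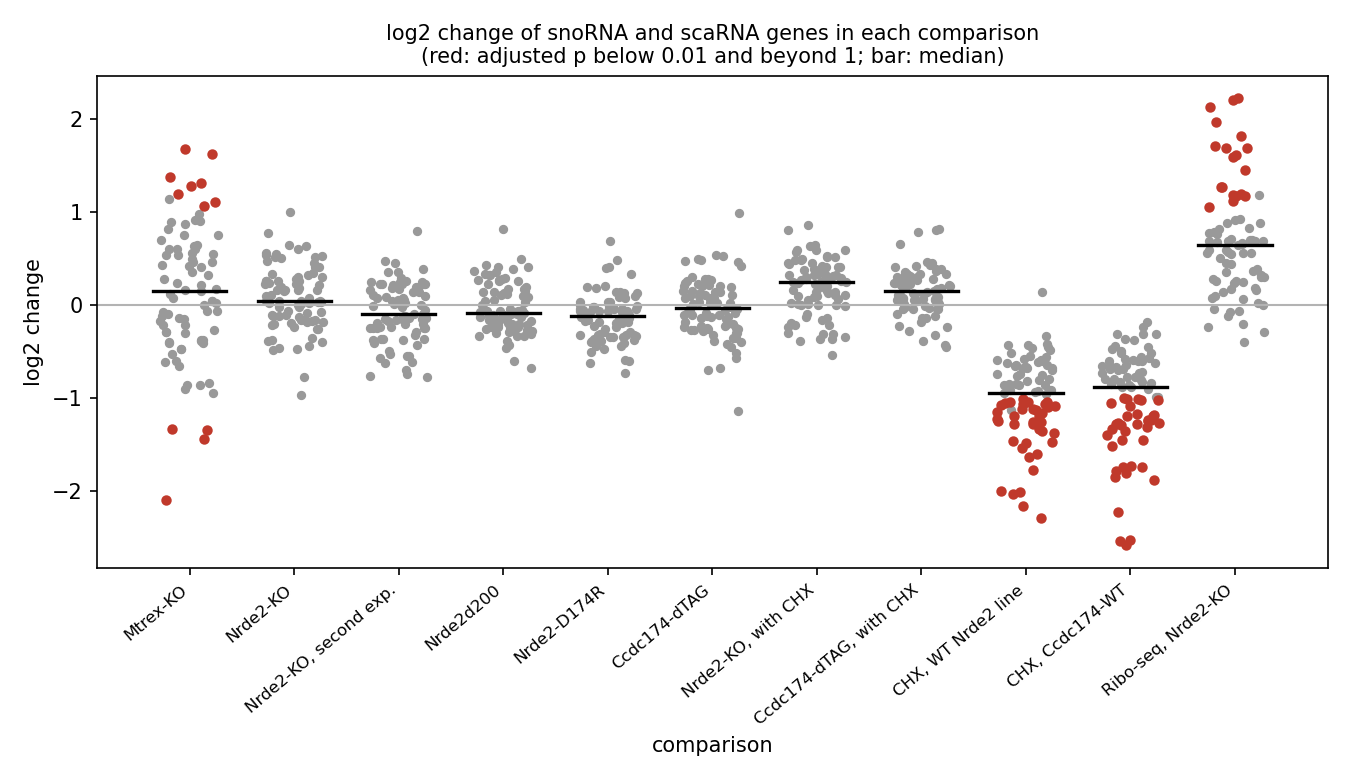
Each point is the log2 change of 1 snoRNA or scaRNA gene (y axis) in the comparison named on the x axis, 83 genes each and 78 in Ribo-seq; horizontal position within a column is random, bars are medians and red points were called. The columns for CHX in WT of the Nrde2 line and in Ccdc174-WT lie almost wholly below 0 (medians -0.94 and -0.88), the Ribo-seq column lies mostly above 0 (median 0.65), and the Mtrex-KO column spreads both ways.

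The first question was whether loss of the exosome helicase MTREX alters these RNAs. In Mtrex-KO, 8 of the 83 genes were higher and 4 lower. Over all 15227 genes tested, 15.9% were called higher and 10.7% lower, so the members' share of increases lay below the background. Their median log2 change was 0.15, against 0.01 over all genes. By class, 3 of 32 C/D genes rose and 0 fell, 4 of 43 H/ACA genes rose and 4 fell, and 1 of 8 with neither box rose. The groups did not overlap, with both knockout libraries higher, for 26 genes, and with both lower for 15, while 39.3% and 38.7% of all genes behaved so. Without Mtrex-KO library 1, the median log2 change was -0.062 in C/D genes, -0.275 in H/ACA genes and 0.353 in genes with neither box. The remaining knockout library lay above both controls for 26 genes and below both for 40. Over all 15227 genes this held for 7047 and 6763, so most genes of any kind lay outside the controls.

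Snora31, an H/ACA RNA within Tpt1, measured 2.76 and 2.79 normalized CPM in Mtrex-WT and 11 and 7.57 in Mtrex-KO. Both knockout libraries lay well above both controls. Its log2 change was 1.63 ± 0.20 (SE, n = 2 against 2, limma adjusted p = 1.2e-06), while its host Tpt1 changed by -0.16 (adjusted p = 0.61). Tpt1 measured 11.3 and 11.8 in Mtrex-WT and 14 and 7.6 in Mtrex-KO, so the groups overlapped. Gm22009, a scaRNA in Kpna4, measured 12.3 and 9.72 in Mtrex-WT and 31.9 and 26.1 in Mtrex-KO, a log2 change of 1.38. Kpna4 itself rose by 0.80 (limma adjusted p = 6.1e-07), and the change of Gm22009 beyond this host was 0.58 and not called. Gm24336 in Cwf19l1 went from 5.03 and 5.04 to 13.3 and 10.6, a log2 change of 1.20, beside -0.30 for its host. These 3 were the genes called higher whichever of the 4 libraries was left out. Without library factors Gm22009 (0.99) and Gm24336 (0.81) fell short of the size rule.

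The other 5 increases leaned on single libraries. Gm26397 in Tomm20 measured 10.7 and 11 in Mtrex-WT and 64.7 and 19.0 in Mtrex-KO, and its log2 change of 1.68 became 0.80 without Mtrex-KO library 1. Gm26165 in Snx5 measured 6.13 and 8.46 against 33.8 and 9.82, and its change of 1.31 became 0.43 without that library. Gm25835 in Eif4a1 measured 47.3 and 39.3 against 160 and 54.9, and its change of 1.12 became 0.35. In these genes the groups were apart, but knockout library 2 lay close to the controls in Gm26165 and Gm25835. In Gm26397 it lay between the controls and library 1, at 19.0. The scaRNA Scarna17 (0.492 and 0.513 against 1.88 and 1.32, log2 change 1.28) and Snora2b (0.875 and 0.427 against 1.88 and 1.32, log2 change 1.07) were low, and both lost the call without Mtrex-KO library 1 and without Mtrex-WT library 2. Scarna17, Gm26165 and Gm25835 lost it without Mtrex-WT library 1 too, and Gm25835 without Mtrex-WT library 2.

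Among the decreases, Snora23, an H/ACA RNA within Ipo7, measured 14.5 and 21.1 in Mtrex-WT and 4.43 and 3.4 in Mtrex-KO. Its log2 change was -2.10 ± 0.34 (SE, n = 2 against 2), and its host changed by -0.64. Gm24119 in Slc25a3 measured 10.3 and 16 against 4.26 and 5.62, a log2 change of -1.34. Both genes were unusually high in Mtrex-WT: medians over the 28 libraries were 3.66 for Snora23 and 2.56 for Gm24119. The highest values of all libraries, 21.1 and 16, were those of Mtrex-WT, and the Mtrex-KO values lay nearer these medians. Snora23 and Gm24119 were called lower whichever library was left out. Gm25989 in Qtrt2 (1.86 and 1.34 against 0.314 and 0.555, log2 change -1.44) lost the call without Mtrex-KO library 1 or Mtrex-WT library 1. Gm22806 in Cks2 (2.6 and 3.19 against 1.19 and 0.833) changed by -1.33, beside -1.44 for its host, and lost the call without Mtrex-KO library 2 or Mtrex-WT library 2.

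**Figure D2:**
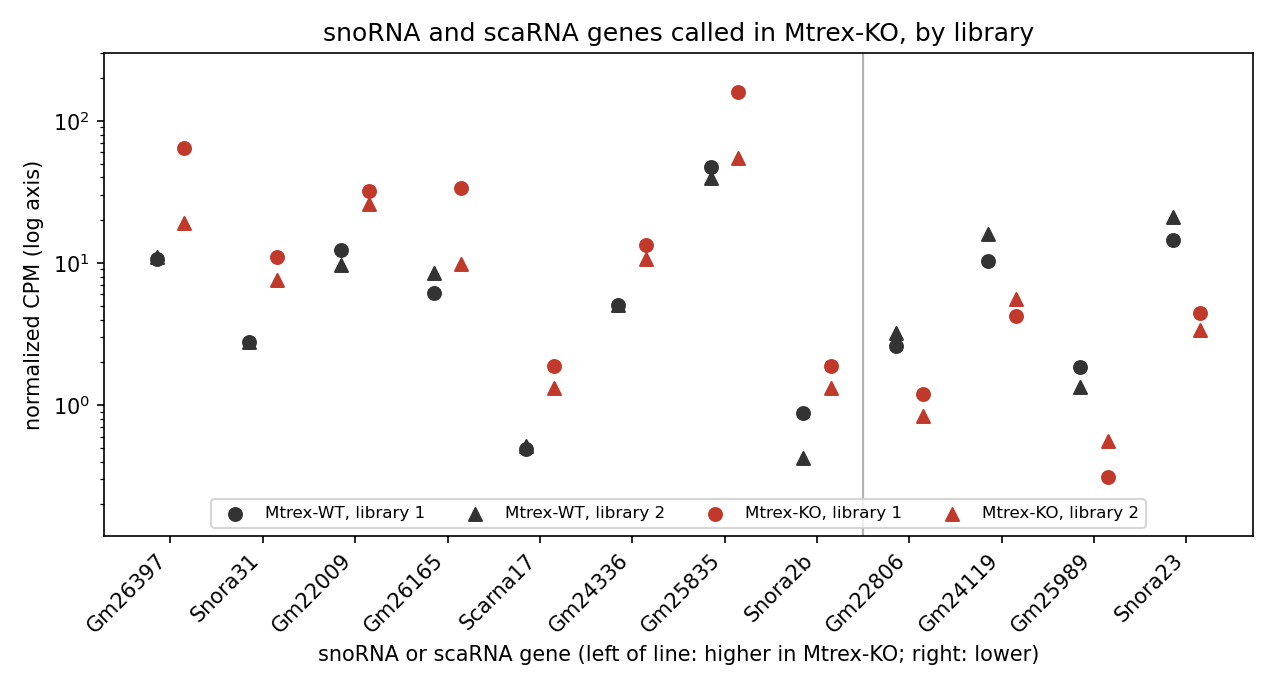
Normalized CPM (y axis, log scale) of the 12 genes called in Mtrex-KO, 1 symbol per library, with black for Mtrex-WT and red for Mtrex-KO and circles and triangles for libraries 1 and 2. The red symbols lie close together for Snora31, Gm22009 and Gm24336, and for Gm26397, Gm26165 and Gm25835 library 1 lies far above library 2 (64.7 against 19.0 in Gm26397).

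Without Mtrex-KO library 1 the median of the 83 genes turned to -0.17, against 0.02 over all genes. Without library 2 the calls leaned to increases instead, and the share over all genes is not given for that case. With CPM as deposited and no library factor, 2 genes were higher and 10 lower, but the whole scale moved. The median was then -0.21 over the 83 genes and -0.37 over all genes. Against the median of all genes the 83 genes stood 0.16 higher on the log2 scale, as against 0.14 with the factor from protein-coding genes. The most abundant members were not called: Snora73b measured 346 and 264 in Mtrex-WT and 720 and 267 in Mtrex-KO (log2 change 0.54, limma adjusted p = 0.12), Snord17 220 and 232 against 327 and 229 (0.28), and Gm26448 changed by -0.21, its higher knockout library at 158 against 159 for the lower control. Only library 1 lay far above the controls for Snora73b, and without it the changes were -0.18 for Snora73b, 0.02 for Snord17 and -0.34 for Gm26448.

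A snoRNA in an intron is made with its host, so each nested gene was also set against its host in the same library. Host levels came from uniquely mapped reads, so host reads that also fit other places were missing, by an amount not measured. In Mtrex-KO, 16 of 74 members rose more than 2-fold relative to the host and 6 fell. Over all 492 nested gene and host pairs of any type, 18.7% rose and 6.5% fell relative to the host, which is close to the members' shares. Hosts themselves tended downward, with a median log2 change of -0.30 over 60 genes, 2 called higher and 7 lower, the same counts and median as without library 1. Snora73b exceeded its host Rcc1 by 2.18 on the log2 scale (1.35 without Mtrex-KO library 1), while Rcc1 changed by -1.64. Rcc1 was taken as host by the rule above, and an exon of Snhg3 overlapped the neighbouring Snora73a on the same strand. In Rpl13a, Snord34 exceeded the host by 2.13 and Snord35a by 2.08, and by 1.55 and 1.71 without that library. Snord15a exceeded Rps3 by 1.96, which became 0.92 and lost the call (limma adjusted p = 0.015) without it. Snord93 stood 1.93 lower relative to its host 2700038G22Rik, which rose by 1.97 while Snord93 itself changed by 0.04. Relative to their hosts Snora23, Gm25989 and Gm22270 (in Rpl5) fell by 1.46, 1.46 and 1.44. Without library 1 these 4 differences were -2.25, -1.77, -1.28 and -1.71, and Gm25989 lost the call. Without Mtrex-KO library 1 fewer members and a smaller share of all pairs rose beyond the host. Without library 2 more members did, and the share over all pairs is not given for that case.

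The proteins that bind these RNAs were read from a list of 8 core genes, of which 0 were called higher and 2 lower in Mtrex-KO, where 15.9% of all genes were called higher and 10.7% lower. Those were Nop10, part of the H/ACA core, with a log2 change of -1.68, and Fbl, the methyltransferase fibrillarin of the C/D core, with -1.01. Of 15 assembly factors 2 were lower, Nolc1 (-1.19) and Pih1d1 (-1.15). Of 23 RNA trimming genes 1 was higher, Zfc3h1 (1.26), and 3 lower: Mtrex itself (-1.39) and the exosome subunits Exosc7 (-1.23) and Exosc8 (-1.07). The counts of the assembly and trimming lists were near or below these shares of all genes. Without Mtrex-KO library 1, Fbl (-0.69), Nolc1 (-0.99) and Exosc8 (-0.97) lost the call. These values were measured beside the changes of the snoRNAs, and their part in those was not tested.

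In the Nrde2 and Ccdc174 mutants without CHX, none of the 83 genes was called by limma. For Nrde2-KO the background was 3.13% of all genes higher and 1.96% lower, and 6 members passed an unadjusted p of 0.05, as did 41.2% of all genes. In the second Nrde2-KO experiment the background was 2.5% and 2.4%, with 8 members at that p and again 41.2% of all genes. For Nrde2d200 it was 1.62% and 1.06%, with 4 members at that p (30% of all genes). For Nrde2-D174R it was 0.144% and 0.0591%, with 7 (17.6%), and for Ccdc174-dTAG 0.23% and 1.14%, with 3 (25.3%). The Nrde2-KO, Nrde2d200 and Nrde2-D174R comparisons share their WT libraries. The single member past an adjusted p of 0.01 in Nrde2-KO was Snord118 (U8, needed to process the large-subunit ribosomal RNAs), with 1.73 and 2.03 in WT and 0.763 and 0.912 in Nrde2-KO. Its log2 change was -0.97 ± 0.25 (SE, limma adjusted p = 0.0076), just short of the size rule. In the second experiment Snord118 measured 0.822 and 0.904 against 0.594 and 1.03 and the groups overlapped, with a change of -0.10 (adjusted p = 0.80). Outside the rule, edgeR and DESeq2 on the recovered reads each called 1 member lower in the first experiment. Of the 3 protein lists, the assembly factor Nolc1 was called lower in both Nrde2-KO experiments (log2 change -1.32 in each) and in Ccdc174-dTAG (-1.26), and the assembly factor Rpap3 in Nrde2d200 (-1.19).

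Whether the Mtrex-KO and Nrde2-KO effects differ was tested directly in the same fit, with the first Nrde2-KO experiment. The difference was called for 4 of the 83 genes, all higher in Mtrex-KO, against 11.3% of all genes higher and 7.23% lower. It was 1.84 ± 0.36 on the log2 scale for Snord118 (limma adjusted p = 0.00046), 1.41 for Snora31, 1.22 for Gm24336 and 1.08 for Gm22009. Kpna4, the host of Gm22009, differed by 0.82. Snord118 measured 3.12 and 2.68 in Mtrex-WT and 6.63 and 4.58 in Mtrex-KO, a change of 0.88 that was not called by itself. Taken against the second Nrde2-KO experiment instead, its difference was 0.98 (limma adjusted p = 0.032) and not called, while Snora31 (1.78), Gm24336 (1.12) and Gm22009 (1.14) were called. With CPM as deposited the calls became 1 higher and 11 lower and the all-gene median of this difference was -0.41. Snora31, Gm24336 and Gm22009 then measured 0.97, 0.77 and 0.63.

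CHX stops elongating ribosomes and thereby nonsense-mediated decay of spliced RNAs. In WT of the Nrde2 line, 39 of the 83 genes fell and 0 rose, against 3.09% of all genes lower and 10.4% higher. The median log2 change was -0.94, against -0.02 over all genes, and 82 of 83 values were below 0. Both CHX libraries lay below both untreated libraries for 80 genes, compared with 40.1% of all genes. In Ccdc174-WT, an experiment with no library in common, 37 genes fell and 0 rose (background 2.8% lower, 11.8% higher), with a median of -0.88 and all 83 values below 0. Both CHX libraries lay lower for 79 of the 83, compared with 41.6% of all genes. The 30 genes called in both made up 76.9% of the first and 81.1% of the second list. By class, 16 of 32 C/D, 22 of 43 H/ACA and 1 of 8 genes with neither box fell in the Nrde2 line, with medians of -0.96, -1.05 and -0.72. In Ccdc174-WT 16, 19 and 2 fell. Other short noncoding types moved the same way, with 4 of 22 snRNA genes and 8 of 18 miRNA genes called lower in the Nrde2 line.

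Snora41, an H/ACA RNA in the translation factor gene Eef1b2, measured 3.23 and 3.4 normalized CPM in untreated WT and 0.385 and 0.583 after CHX. The log2 change was -2.29 ± 0.20 (SE, n = 2 against 2; limma adjusted p = 2.9e-07). In Ccdc174-WT it went from 4.16 and 3.98 to 0.515 and 0.426, a change of -2.59. Gm23201 measured 5.02 and 5.66 against 0.795 and 1.24 in the Nrde2 line and 5.59 and 5.59 against 0.896 and 0.65 in Ccdc174-WT, changes of -2.16 and -2.52. Each CHX library of both genes lay below every untreated one. Snord49a went from 5.25 and 5.72 to 1.08 and 1.21 (-2.04), and from 7.3 and 8.63 to 1.3 and 1.03 (-2.54). Snord65 went from 1.41 and 1.33 to 0.144 and 0.316 (-1.78), and from 2.84 and 2.16 to 0.381 and 0.291 (-2.22). Snora31, which rose in Mtrex-KO, fell from 4.05 and 3.89 to 0.843 and 0.753 (-2.01) and from 2.51 and 1.85 to 0.471 and 0.47 (-1.74). Most of these CHX values rest on few reads, 16 and 24 for Snora41 and 33 and 51 for Gm23201 in the Nrde2 line. Gm25848 in Fbxo45 was the single gene above 0, at 0.14 (1.61 and 1.96 against 2.36 and 1.68, adjusted p = 0.57), and at -0.08 without CHX-treated library 1.

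**Figure D3:**
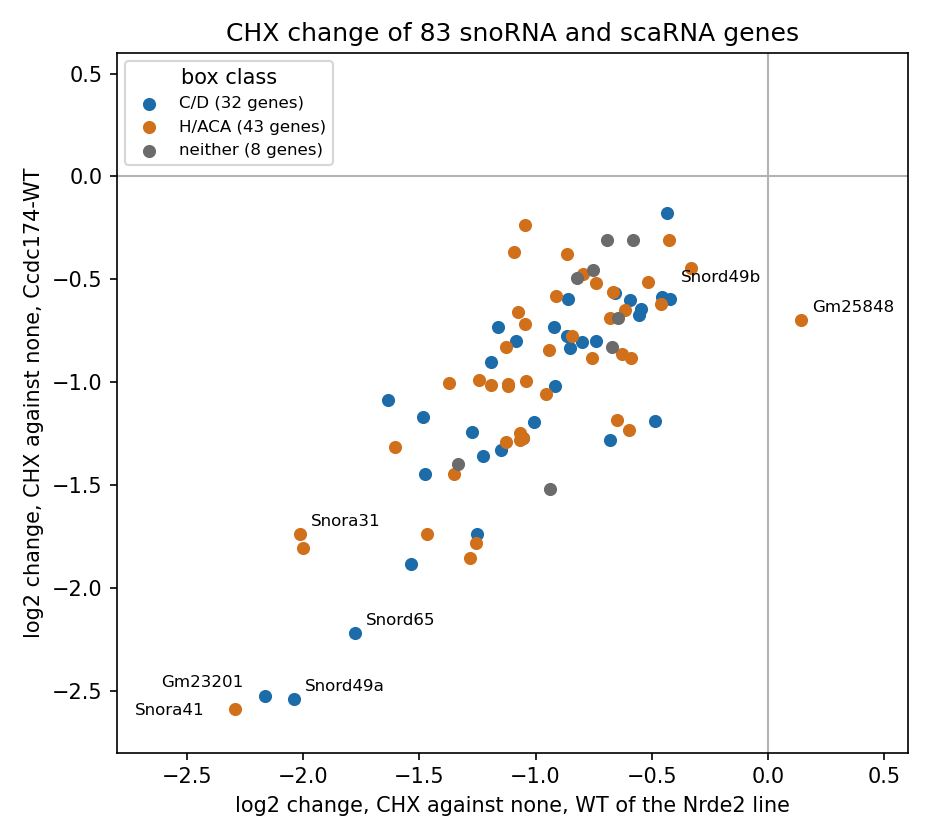
Log2 change after CHX in WT of the Nrde2 line (x axis) and in Ccdc174-WT (y axis) for 83 genes, coloured by box class. The points lie below 0 on both axes except Gm25848, at 0.14 on the x axis, with Snora41, Gm23201 and Snord49a at the lower left.

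Several hosts rose while their snoRNAs fell. The 60 hosts had a median log2 change of -0.37 with 4 called higher and 5 lower. The noncoding host 2410006H16Rik rose by 2.19 (2.16 in Ccdc174-WT), while its snoRNAs Snord49a and Snord65 fell and Snord49b measured -0.42 in the Nrde2 line and -0.60 in Ccdc174-WT (limma adjusted p = 0.067), both uncalled. Zfas1, host of Gm23201, rose by 1.63, and Epb41l4aos, host of Gm23639, by 1.44, while Gm23639 fell by 2.00. Host Tpt1 of Snora31 and Eef1b2 of Snora41 changed by -1.44 and -0.75. Relative to the host, 18 of 74 genes fell and 0 rose in the Nrde2 line, where 30.7% of all 492 nested pairs fell and 0.813% rose. In Ccdc174-WT 20 fell and 0 rose (24% and 1.42% of all pairs). Of nested genes of other types, 133 and 98 of 418 fell, so a fall relative to the host was not particular to snoRNAs. The differences were -4.23 for Snord49a, -3.97 for Snord65, -3.79 for Gm23201, -3.44 for Gm23639 and -2.61 for Snord49b.

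**Figure D4:**
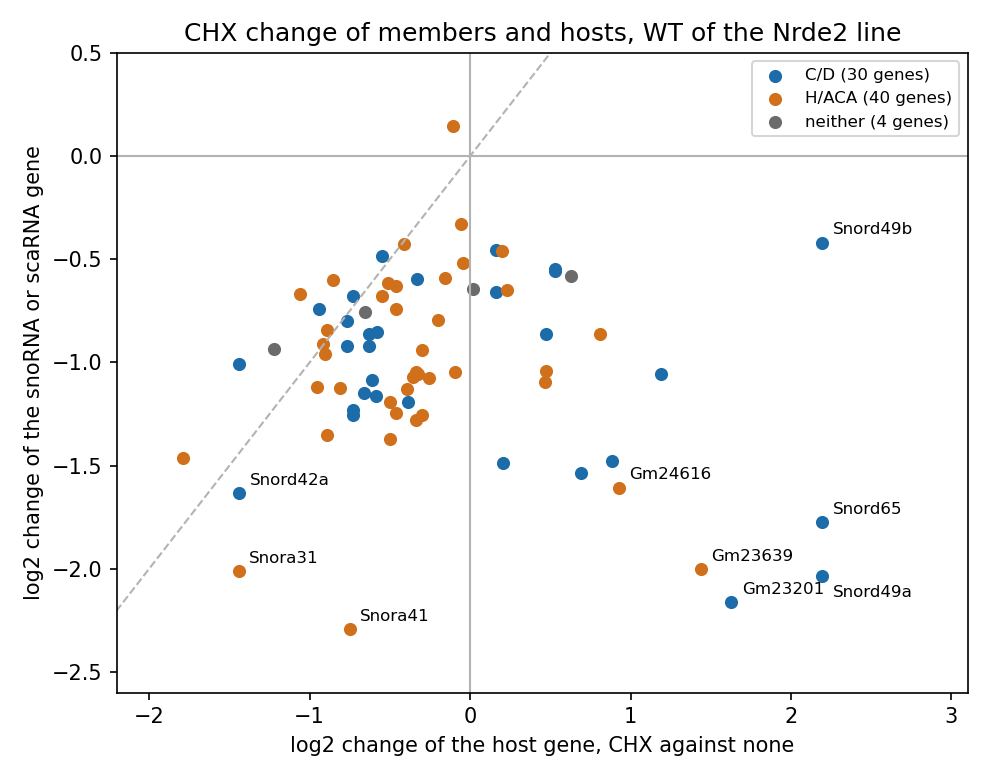
Log2 change after CHX in WT of the Nrde2 line for 74 genes (y axis) against that of the host (x axis), coloured by box class; the dashed line marks equal change. Snord49a, Snord65, Gm23201 and Gm23639 lie at the lower right, where the host rose and the snoRNA fell, and Snord49b shares the host of Snord49a and Snord65 but lies near -0.42.

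CHX was also given to the mutants. In Nrde2-KO 20 genes fell and 0 rose with a median of -0.68 (background 3.46% lower, 10.1% higher), and in Ccdc174-dTAG 27 fell and 0 rose with a median of -0.77 (background 2.9% and 10.9%). The difference of the CHX effects was called for none of the 83 genes in limma in either line (background 0.0985% higher and 0.046% lower for Nrde2-KO, 0.0394% and 0.0328% for Ccdc174-dTAG). It had a median of 0.29 between Nrde2-KO and WT, with 19 genes at an unadjusted p of 0.05, 18 of them higher, where 8.37% of all genes were higher at that p. Its median was 0.46 in H/ACA and 0.04 in C/D genes, and 0.70 in the 22 snRNA genes. For Ccdc174 the median was 0.17 with 8 genes at that p (9.59% of all genes). Compared within CHX libraries, no member was called in Nrde2-KO (background 2.83% higher, 1.64% lower). Of the 83 genes 21 passed an unadjusted p of 0.05, all higher, near the share of all genes (24.5%). An adjusted p of 0.01 was passed by 7, all higher, below the 12.4% of all genes that did so. Scarna2, a scaRNA for modification of the U2 snRNA, measured 35.6 and 39.3 in WT and 69.0 and 62.1 in Nrde2-KO with CHX, a log2 change of 0.81 ± 0.10 (SE, limma adjusted p = 0.00013). Snord17 measured 65.8 and 60.0 against 86.2 and 113 (0.65), and Gm26397 7.37 and 7.19 against 10.6 and 12.5 (0.64). All 3 were apart between groups but under 2-fold. In Ccdc174-dTAG with CHX no member was called (background 0.171% and 0.657%), and 12 passed the unadjusted p of 0.05, all higher (17.4% of all genes were).

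Ribo-seq sequenced nuclease-protected fragments of a narrow size, so a read in a snoRNA gene counts a protected fragment of any origin and is no sign of translation. Of the 83 genes 78 averaged at least 0.5 CPM there. The 83 genes summed to 1798 and 1765 normalized CPM in WT and to 2765 and 2976 in Nrde2-KO. In Nrde2-KO 19 of the 78 rose and 0 fell, against 3.62% of all 13857 genes higher and 2.8% lower. The median log2 change was 0.65, against 0.00 over all genes, and 40 members passed an adjusted p of 0.01, all higher, where 11% of all genes did so.

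The gain lay mainly in the C/D genes. Of 32 C/D genes 17 rose, with a median of 1.18, against 2 of 38 H/ACA genes with a median of 0.31. Of the 8 that matched neither rule 0 rose, with a median of 0.47. C/D genes summed to 556 and 528 normalized CPM in WT and to 1072 and 1253 in Nrde2-KO. H/ACA genes summed to 676 and 649 against 786 and 873. Class and length move together: all 17 were among the 26 C/D genes under 100 bases (median 1.23), while 0 of the 6 longer C/D genes were called (median 0.75), and no tested H/ACA gene was under 100 bases. The 2 H/ACA genes were Gm23105 in Pawr (1.12) and Gm24119 in Slc25a3 (1.06). snRNA genes had a median of 0.40 with 10 of 150 higher.

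Snord87, whose host Snhg6 is noncoding, measured 13.7 and 12.7 normalized CPM in WT and 55.9 and 70.1 in Nrde2-KO, resting on 105 and 95 against 311 and 539 reads. The log2 change was 2.23 ± 0.12 (SE, n = 2 against 2; limma adjusted p = 5.9e-11), and the host changed by 0.10. Scarna17 measured 3.65 and 2.94 against 14.6 and 17.7 (2.21). Snord34 measured 11.6 and 12.5 against 48.4 and 59.6 (2.13), and its neighbours in Rpl13a, Snord32a and Snord35a, changed by 1.19 (called) and 0.93 (under the size rule). Rnu73b measured 2.09 and 2.0 against 7.37 and 10.4 (1.97). In each of these genes both knockout libraries lay above both WT libraries by more than the spread within a group. In 2410006H16Rik all 3 snoRNAs were called, Snord49a at 1.82 (22.2 and 20.4 against 68.7 and 83), Snord65 at 1.28 and Snord49b at 1.17. Of the genes classed C/D by the letter search, only Gm23136 in Rpl4 lay below 0, at -0.29. The most abundant member in Ribo-seq was Scarna2, with 416 and 437 in WT and 736 and 662 in Nrde2-KO (0.71, adjusted p = 6.9e-07), which was 23.9% of the summed WT level. Of the protein lists, 1 gene was called, the assembly factor Nolc1 (-1.57), and the 60 hosts had a median of -0.19 with 0 called higher and 1 lower.

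The Ribo-seq change was then tested against the RNA-seq change of the first Nrde2-KO experiment in one fit of 8 libraries. The difference was called for 15 of 78 genes, all higher in Ribo-seq, against 1.03% of 12867 genes higher and 0.326% lower. Without the filter on low genes, limma called 0 genes of any type, with 29 members at an unadjusted p of 0.05, while with the filter edgeR called 18 members and DESeq2, with its own filter, 20. Of the 15, 13 were classed C/D, 1 was classed H/ACA (Gm24119, 1.53) and 1 matched neither rule (Snord118, 1.34). The difference was 2.39 for Snord87, 2.19 for Scarna17, 2.15 for Snord34 and 2.00 for Snord49a. The count lay between 7 and 13 when single libraries were left out, and each of these 4 genes kept a difference above 1.80.

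**Figure D5:**
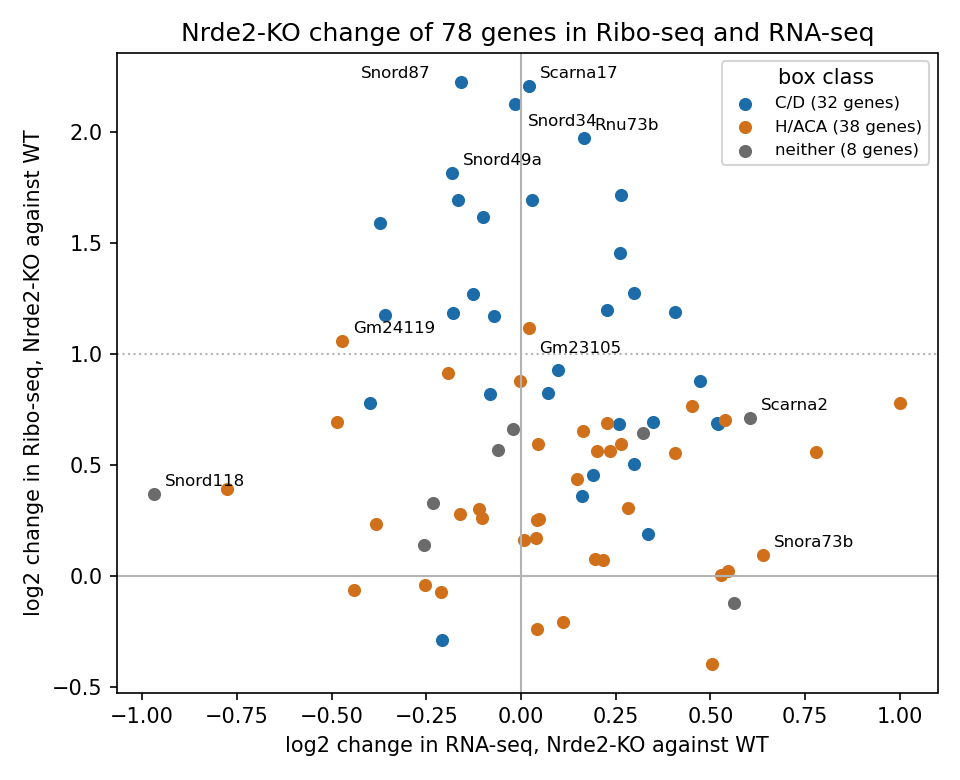
Log2 change of 78 genes in Nrde2-KO against WT in RNA-seq (x axis) and Ribo-seq (y axis), coloured by box class; the dotted line marks a Ribo-seq change of 1. C/D genes fill the upper part with RNA-seq values on both sides of 0, while H/ACA genes lie mostly below the dotted line.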

How the data were processed

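Stranded total RNA-seq (rRNA-depleted, 50-nt single-end reads) and Ribo-seq tables of one row per gene were used. The deposited CPM were made by the authors from uniquely mapped reads (STAR 2.7.3a, mm10, featureCounts, a later GENCODE release than used here). For Ribo-seq, fragments from nuclease-treated lysates were gel-selected and duplicates collapsed. Values were whole multiples of 1 read, and reads were recovered for 100% of values within 0.1 read. No per-sample column was left unmatched (0). Gene types, hosts and sequences came from GENCODE M21 on GRCm38, in which 55154 of 55335 table IDs were found.

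CPM were divided by median-of-ratios factors, 0.25 was added and log2 taken, and genes averaging at least 0.5 CPM were fitted with limma 3.58.1 (R 4.3.3) with a mean-variance trend and Benjamini-Hochberg adjustment: 20 libraries without CHX together, 8 with CHX, 16 for CHX effects and 4 for Ribo-seq. No replicate block was used. Alternatives were edgeR 4.0.16 (quasi-likelihood) and DESeq2 1.42.0 on recovered reads, other factors, filters and added values, and leaving out libraries. The fits were tested on simulated data. Members, lists and box classes were chosen with earlier results of these data known. The CHX effects in mutants, the differences of CHX effects and of Ribo-seq and RNA-seq, the CHX host comparison and the box classes were added after seeing the data. Named were called genes with at least 1 normalized CPM in the higher group and no overlap of the groups (up to 12 each way by size in Mtrex-KO and 4 elsewhere), the 8 most abundant by CPM and by CPM per kb, well-known RNAs, listed proteins and hosts; other names were chosen after their values were seen.

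The depth limits low members: 23 averaged under 1 CPM. Reads are not independent molecules, so only the spread between libraries gives errors.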

Additional observations from a re-analysis of the deposited data

Results flagged for a closer look

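The change in Mtrex-KO differed from that in Nrde2-KO for 4 snoRNA or scaRNA genes by a test of the difference itself in limma: 1.84 on the log2 scale for Snord118, 1.41 for Snora31, 1.22 for Gm24336 and 1.08 for Gm22009, each higher in Mtrex-KO. Over single libraries left out, the difference ranged from 1.59 to 2.10 for Snord118, from 1.15 to 1.67 for Snora31, from 1.06 to 1.38 for Gm24336 and from 0.92 to 1.25 for Gm22009, which lost the call without Mtrex-KO library 1, Mtrex-WT library 2 or Nrde2-KO library 2. With CPM as deposited 3 of the 4 lost the call and Snord118 kept it. Taken against the second Nrde2-KO experiment instead, a choice made after seeing the data, Snord118 (0.98, limma adjusted p = 0.032) lost the call and the other 3 kept it. The 2 knockouts were made in different lines with 3 and 4 days of 4-hydroxytamoxifen, and line, duration and genotype cannot be told apart.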

How the results depend on the processing

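None of the called genes followed through every alternative changed direction in those run. Of uncalled genes given with values, Gm25848 after CHX turned from 0.14 to -0.08 without CHX-treated library 1, Snora73b in Mtrex-KO from 0.54 to -0.18 without Mtrex-KO library 1, and Snord17 in Mtrex-KO from 0.28 to -0.12 with CPM as deposited. With 1 added before log2, the genes called became 14 for CHX in WT of the Nrde2 line, 15 in Ccdc174-WT, 7 in Nrde2-KO and 9 in Ccdc174-dTAG, and 13 for the CHX change beyond the host in Ccdc174-WT. With CPM as deposited they were 21 for CHX in WT of the Nrde2 line and 12 for the difference of the Mtrex-KO and Nrde2-KO effects. With a mean of at least 1 CPM they were 12 for CHX in Nrde2-KO and 13 for the Mtrex-KO change beyond the host, and with the compared groups alone 10 for the latter and 1 for Ccdc174-dTAG. In Nrde2-KO 1 gene was called with 0.1 added, 1 by edgeR and 1 by DESeq2, and DESeq2 called 1 for the difference of the CHX effects of Nrde2-KO and WT. Without a filter the Ribo-seq minus RNA-seq difference called 0 genes of any type (29 members at an unadjusted p of 0.05 in limma, against 18 members called with the filter by edgeR and 20 by DESeq2 with its own filter), and the cause was not tested.

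Leaving out single libraries, calls ranged from 9 to 25 in Mtrex-KO, 4 to 12 for its difference from Nrde2-KO, 13 to 38 for the Mtrex-KO change beyond the host, 0 to 2 in Nrde2-KO (2 without WT library 2), 0 to 1 in Ccdc174-dTAG (1 without its library 1), 0 to 1 for the difference of CHX effects of Nrde2-KO and WT (1 without untreated WT library 2), 16 to 21 in Ribo-seq and 7 to 13 for Ribo-seq minus RNA-seq. The latter fell to 9 without RNA-seq WT library 2, 8 without RNA-seq Nrde2-KO library 2, 8 without Ribo-seq WT library 1 and 7 without Ribo-seq Nrde2-KO library 2. The Mtrex-KO change beyond the host was called for 13 genes without Mtrex-WT library 2. The labels do not say that a replicate number marks a shared batch. Differences between libraries 1 and 2 correlated between compared groups by -0.03 to 0.40, above 0.1 in 11 of 13 comparisons, so the numbers may mark something shared, and with 2 pairs each this was not settled. As a check, with the replicate block 13 genes were called in Mtrex-KO, 5 for its difference from Nrde2-KO, 21 for the change beyond the host, 20 in Ribo-seq and 39 and 37 after CHX in the WT lines, moving no count by more than 1.5 times. Depth limits the CHX values: in CHX-treated WT of the Nrde2 line 28 of the 83 genes averaged below 0.5 normalized CPM, against 1 without CHX.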
